A study of Mus musculus with 8 samples.

Results

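Mitochondrial ribosomal proteins are the proteins of the ribosome that works inside mitochondria. The members were the mouse genes whose symbols begin with Mrpl or Mrps and a digit, without pseudogenes, and whose level averaged at least 1 CPM (counts of a gene scaled to a fixed library total) over 8 libraries. Of 43346 genes in the table, 77 had such a symbol and 75 reached that level. The members comprise 48 proteins of the large subunit, 26 of the small subunit and Mrps36, which keeps a ribosomal symbol but is known as a part of the 2-oxoglutarate dehydrogenase complex. The symbols Mrps30 and Mrps18a stand for large-subunit proteins, mL65 and mL66 in the structure-based naming. Just inside the level threshold were Mrps36, at a mean of 2.64 CPM, and Mrps33, at 4.14 CPM. Below it were Mrpl23, at 0.666 CPM, and Mrpl53, at 0.0238 CPM. Exons of Gm42688 on the same strand cover 87.1% of the counted length of Mrpl53, so its count is uncertain.

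The study sequenced polyadenylated RNA from mouse macrophages, unstimulated or 3 h after lipopolysaccharide (LPS), a component of the outer membrane of Gram-negative bacteria. BMDM are bone-marrow derived macrophages grown in L929-conditioned medium, with 2 unstimulated and 2 LPS libraries. RAW 264.7 is an established mouse macrophage-like cell line, and hMPDM is a cell type that the labels name only by this abbreviation; each gave 1 unstimulated and 1 LPS library. No genotype, strain, animal age or LPS dose is given in the sources used here, and nothing says whether the BMDM replicates came from separate animals. P-values therefore measure the spread between these libraries, which may be technical.

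As background, mitochondria carry a small genome whose protein genes encode membrane subunits of the respiratory chain and of ATP synthase. These messages are translated only by the mitochondrial ribosome. Its RNAs are made inside the organelle, whereas all of its proteins are encoded in the nucleus, made in the cytosol and imported. The large subunit joins amino acids and feeds the new chain to the inner membrane, and the small subunit reads the message. Macrophages exposed to LPS are known to shift their energy metabolism towards glycolysis. All 37 genes of the mitochondrial genome in the table are listed at 0 counts in the 8 libraries, so the products of these ribosomes and their RNAs are not analysed here.

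The libraries held between 3116434 and 19307312 counted reads, with the RAW 264.7 libraries the shallowest. The 75 members together took 35095 and 43141 counts in unstimulated BMDM and 12368 in unstimulated RAW 264.7, with a median of 151 counts a member in the latter. Their fewest counts were in the hMPDM LPS library, 10264 in all, with a median of 121 and a lowest value of 4. Summed levels of 10 macrophage markers lay between 14860 and 19890 CPM, whereas 6 fibroblast markers summed to at most 0.453 CPM and 4 of 7 B and T cell markers were at 0. Another of these 7, Lck, was at 0.478 and 0.339 CPM in unstimulated BMDM and 2.12 and 1.9 CPM after LPS. Before and after LPS, Lck stood at 0.781 and 3.71 CPM in hMPDM and at 1.83 and 3.00 CPM in RAW 264.7. Of the 10 macrophage markers, 4 were called higher and 5 lower in unstimulated RAW 264.7 against BMDM, beside 27.1% and 31.3% of all genes tested. Summed levels of 7 neutrophil genes came to between 58.8 and 96.3 CPM in BMDM, 17.4 and 28.1 CPM in hMPDM, and 4.45 and 4.49 CPM in RAW 264.7. The hMPDM LPS library held 16 genes that were near absent in resting hMPDM (1.35% of the BMDM level) at 10.8% of their level in LPS-treated BMDM. Taking that share of the BMDM LPS profile out of the hMPDM LPS library left the test of hMPDM against BMDM responses at 0 members in each direction. The part of this share in the hMPDM ratios, and of the neutrophil genes in any value, was not tested. Bulk libraries cannot tell fewer cells of a type apart from less RNA per cell.

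The members were expressed at moderate levels. Per kilobase of summed exon length, the median member lay between 13.1 and 19.5 CPM per kb in the 8 libraries (levels here and below are scaled by TMM, which corrects for composition). The highest mean levels per length belonged to Mrpl52 at 117 CPM per kb, Mrpl42 at 68.2, Mrpl12 at 39.4, Mrps16 at 38.4 and Mrpl28 at 37.7. Mrpl12 is a large-subunit stalk protein that is also known to bind the mitochondrial RNA polymerase. At the low end stood Mrps36 at 1.94 CPM per kb, Mrps10 at 3.06, Mrps35 at 3.14, Mrps5 at 3.25 and Mrpl48 at 3.31. The value of Mrpl52 rests on a counted length of 412 bases and ranged from 30.2 to 286 CPM per kb over the libraries, the widest span of these 10.

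The members are scattered over 17 chromosomes, with 11 of them on chromosome 11 and 0 on X or Y. Of the 75 members 16, or 21.3%, start head to head with another gene within 1000 bases, against 10.6% of 10799 coding genes at 1 CPM or more. Some of the 16 partners belong to the mitochondrial gene expression machinery. Others, such as the condensin gene Ncapd2 and the DNA helicase gene Helq, do not, and the share of such partners over all genes was not computed. Mrps12 starts 148 bases from Sars2, the mitochondrial seryl-tRNA synthetase, and Mrpl43 starts 116 bases from Twnk, the helicase of mitochondrial DNA. Mrps27 starts 108 bases from Ptcd2, a mitochondrial RNA-binding protein gene. Mrpl49 lies 137 bases from Fau, which encodes a protein of the cytosolic ribosome.

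The promoter windows of the family were rich in the letters CCGGAA, the core bound by ETS factors such as GABPA, which is known to drive nuclear genes for mitochondrial proteins. RefSeq windows of 300 bases (250 before and 50 after the start, GRCm38.p6) were found for 66 of the 75 members, 72 windows in all. On either strand, CCGGAA was present in 56.9% of these windows, against 14.9% of all 32851 windows and 28.7% of the windows of expressed coding genes. AAGATGG, a YY1 core, was in 18.1% against 6.34% and 7.35%. GCGCATG, a part of the NRF1 motif, was in 9.72% against 3.91% and 7.17%, and the E-box CACGTG was in 9.72% against 7.15% and 10.1%. A match is a description of the letters and does not show binding. The 5 stretches below, all upstream of the start and free of annotated exons, are shown because they belong to the largest rise after LPS (Mrpl52), the largest fall among ribosomal members (Mrpl41), a member far higher in RAW 264.7 (Mrps26), a member with paired motifs (Mrps22) and a shared head-to-head promoter (Mrpl43). Capitals mark the motifs, and TTCCGG is CCGGAA read on the other strand.
Mrpl52, chr14:54426759-54426908, plus strand: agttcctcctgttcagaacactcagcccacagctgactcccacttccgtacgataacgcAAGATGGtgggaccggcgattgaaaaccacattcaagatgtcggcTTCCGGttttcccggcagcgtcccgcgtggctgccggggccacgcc
Mrpl41, chr2:24975099-24975248, minus strand: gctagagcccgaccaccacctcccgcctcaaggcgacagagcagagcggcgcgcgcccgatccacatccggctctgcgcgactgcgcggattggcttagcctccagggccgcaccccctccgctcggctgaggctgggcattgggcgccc
Mrps26, chr2:130563507-130563653, plus strand: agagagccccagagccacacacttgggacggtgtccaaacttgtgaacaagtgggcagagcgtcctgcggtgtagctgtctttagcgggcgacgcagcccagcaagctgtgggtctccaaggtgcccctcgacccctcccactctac
Mrps22, chr9:98601661-98601810, minus strand: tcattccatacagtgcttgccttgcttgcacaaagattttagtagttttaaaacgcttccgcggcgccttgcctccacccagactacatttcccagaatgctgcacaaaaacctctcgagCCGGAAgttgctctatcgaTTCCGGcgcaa
Mrpl43, chr19:45006443-45006557, minus strand: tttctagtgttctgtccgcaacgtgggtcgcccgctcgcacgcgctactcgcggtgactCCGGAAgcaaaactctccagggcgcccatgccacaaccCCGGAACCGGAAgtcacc
The Mrpl43 stretch holds CCGGAA 3 times, with 2 copies in tandem, and it is nearly all of the interval between this gene and Twnk. The Mrpl52 stretch holds 1 YY1 core and 1 ETS core, whereas none of the 4 motifs is in the Mrpl41 or Mrps26 stretch.

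The first comparison asks how the family answers 3 h of LPS in BMDM. The summed level of the family differed little between the groups, while a few members moved strongly. Mrpl52 rose 3.15-fold and Mrpl39 1.77-fold, and Mrpl41 fell by 1.94-fold. Summed over the 75 members, the level was 2098 and 2090 CPM in the unstimulated libraries and 2184 and 2199 CPM after LPS. Scaled by library size alone the same sums were 2239 and 2234 before and 1811 and 1822 after, so the direction of the sum depends on the scaling.

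In edgeR's quasi-likelihood test with Benjamini-Hochberg adjustment over 12461 genes, 20 members rose and 14 fell at an adjusted p under 0.05. Of all genes tested, 62.7% were called in this comparison (31.7% rose and 31.1% fell), and the members' share of calls lay below that background. Their median log2 change was -0.001, beside -0.020 over all genes. Changes were small: 4 members moved by at least 1.5-fold, against 35.7% of all genes tested. The unstimulated and LPS libraries did not overlap for 54 of the 75, against 79.7% of all genes. Library-size scaling shifted the median of all genes to -0.385 and that of the members to -0.367; 2 members then rose and 52 fell, and 14 of the 20 rises turned direction, all but those of Mrpl52, Mrpl39, Mrpl27, Mrpl45, Mrps14 and Mrpl3. DESeq2 called 3 rises and 2 falls. Without the second unstimulated library there were 12 rises and 8 falls, and without the second LPS library 7 falls.

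**Figure D1:**
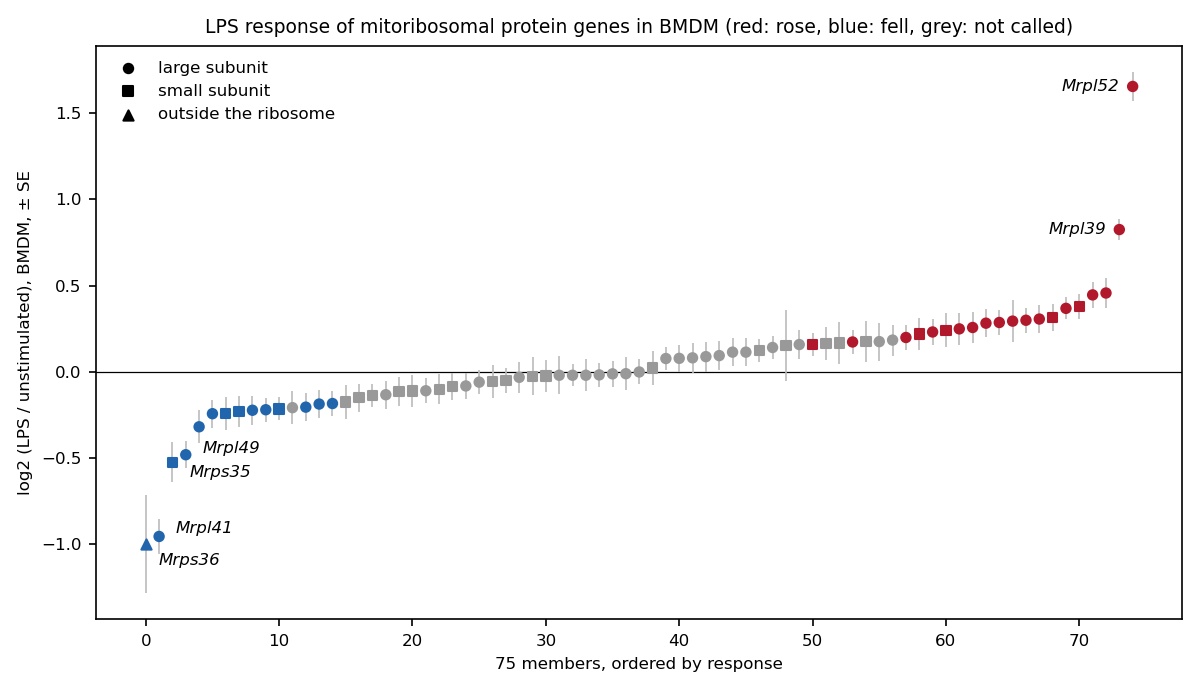
Log2 change after 3 h LPS in BMDM (y axis) of all 75 members, ordered by value along the x axis, with the standard error of the edgeR fit; circles are large-subunit members, squares small-subunit members and the triangle Mrps36, in red where the member rose, blue where it fell and grey where it was not called. Most members lie within 0.5 of 0, and Mrpl52 (1.65) and Mrpl39 (0.82) stand above the rest.

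Among large-subunit members 15 of 48 rose and 9 fell, beside 31.7% and 31.1% of all genes, with a median log2 change of 0.08. The rises were near the background share. The protein encoded by Mrpl52 (chr14:54426909-54429750, mm10, plus strand) is found in mitochondrial and not in bacterial ribosomes. Its level was 13.5 and 12.5 CPM in unstimulated BMDM and 43.2 and 39.3 CPM after LPS, a log2 change of 1.65 (SE 0.09, edgeR adjusted p = 1.3e-16). Mrpl39 (chr16:84717576-84735742, minus strand), likewise particular to mitochondria, went from 42.4 and 42.0 CPM to 74.4 and 75.03 CPM, a log2 change of 0.82 (SE 0.06, edgeR adjusted p = 2.3e-13). The LPS libraries were far above the unstimulated ones for both genes, and replicates differed little. These 2 rises held under each of 10 refits with other settings.

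The next rises were smaller. Mrpl27, whose bacterial counterpart sits by the catalytic centre of the ribosome, went from 18.2 and 19.2 CPM to 23.9 and 26.8 CPM, a log2 change of 0.46. Mrpl45, which anchors the ribosome at the inner membrane, went from 32.5 and 31.9 CPM to 39.8 and 46.2 CPM, a change of 0.45. Mrpl3, a core protein near the catalytic centre, went from 42.3 and 45.4 CPM to 58.3 and 55.7 CPM, a change of 0.37. For these 3 genes and the small-subunit gene Mrps14 the groups did not overlap. Under library-size scaling the 4 log2 changes shrank to 0.09, 0.08, 0.00 and 0.01 in that order, and none was called. With DESeq2 the calls for Mrpl27, Mrpl45 and Mrps14 were also lost, and that for Mrpl3 held.

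Falls in the large subunit were led by Mrpl41 (chr2:24974117-24975098, minus strand), a protein particular to mitochondria. Its level was 25.9 and 25 CPM in the unstimulated libraries and 11.03 and 14.2 CPM in the LPS libraries, a log2 change of -0.95 (SE 0.10, edgeR adjusted p = 2.07e-09). Mrpl49 went from 39.8 and 36.7 CPM to 29.3 and 26.2 CPM, a log2 change of -0.48 (SE 0.08). Both falls held under the 10 refits. Mrpl58, a peptidyl-tRNA hydrolase that frees stalled ribosomes and became a ribosomal protein, went from 24.7 and 22.2 CPM to 20.9 and 17.6 CPM, a change of -0.32. Mrpl51 changed by -0.24. Calls for Mrpl58 and Mrpl51 were lost with DESeq2 and without the second LPS library, where their values were -0.16 and -0.26 (edgeR adjusted p = 0.329 and 0.0722). The Mrpl51 call was also lost without the second unstimulated library, at -0.21.

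In the small subunit 5 of 26 members rose and 4 fell, beside 31.7% and 31.1% of all genes, and the median log2 change was -0.04. Mrps14, a protein of the small subunit's head, rose from 33.7 and 31.0 CPM to 41.6 and 42.2 CPM, a log2 change of 0.38 (SE 0.07). Mrps35 fell from 16.0 and 14.7 CPM to 11.6 and 10.04 CPM, a log2 change of -0.53 (SE 0.12). The members include 3 paralogs of the bacterial protein S18. Mrps18c rose from 24.03 and 24.6 CPM to 30.7 and 30.04 CPM, a change of 0.31, whereas the changes of Mrps18a (0.08) and Mrps18b (-0.06) did not pass the test. Under library-size scaling the Mrps18c change turned direction, and its call was not among those that held under all refits. Outside the ribosome, Mrps36 went from 3.23 and 3.25 CPM to 2.27 and 1.26 CPM, a log2 change of -1.0 (SE 0.28, edgeR adjusted p = 0.00297), on as few as 15 counts a library. Calls for Mrps36 and Mrps35 were lost with DESeq2 and without the second LPS library, where their values were -0.51 and -0.39 (edgeR adjusted p = 0.27 and 0.0521).

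Members were counted apart by their standard names, which are either shared with bacterial ribosomal proteins or given to mitochondrial ones alone. The names do not settle ancestry: Mrps18a and Mrps18b, paralogs of bacterial S18, and Mrpl58 carry names of the second kind. Of 44 members with a name of the first kind, 14 rose and 4 fell, beside 31.7% and 31.1% of all genes, and their median was 0.09. Of 30 members with a name of the second kind, 6 rose and 9 fell, and their median was -0.04. The rises of the first class and the falls of the second were thus near the background share. The 2 largest rises and the largest fall among ribosomal members came from the second class. The difference between the classes was not tested.

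**Figure D2:**
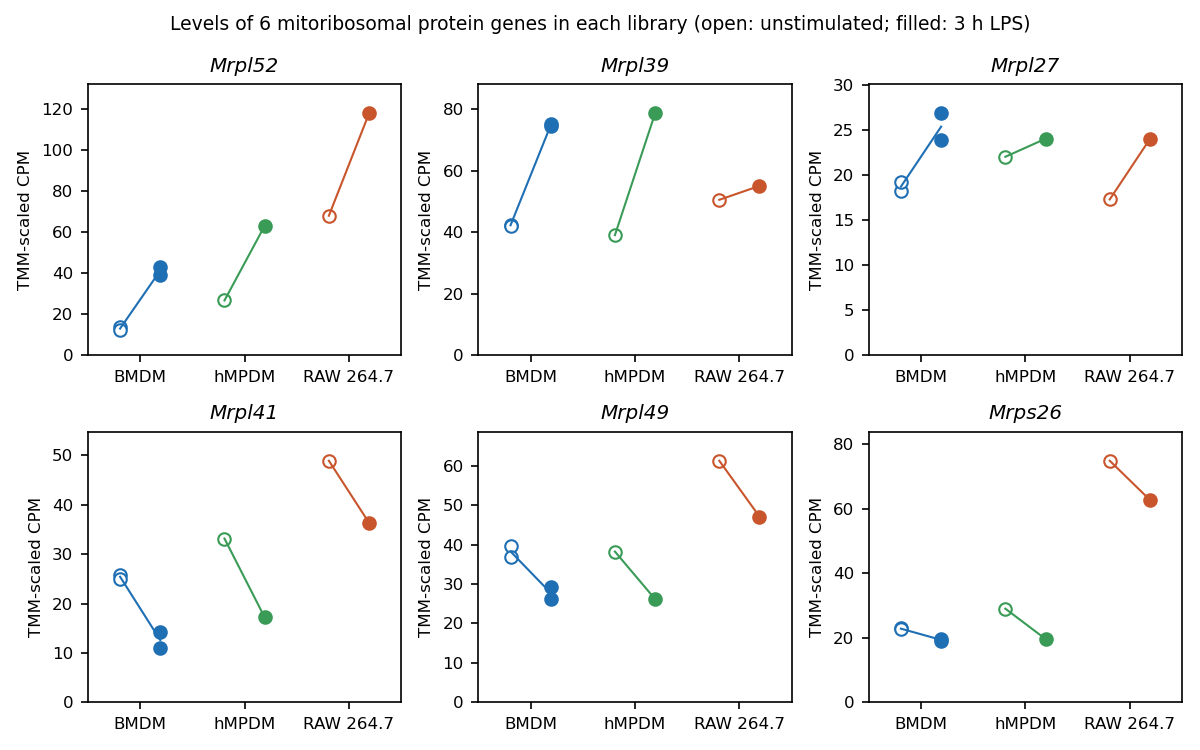
Level in TMM-scaled CPM (y axes from 0) of 6 members in each of the 8 libraries, by cell type along the x axis; open points are unstimulated, filled points 3 h LPS, and lines join group means. Mrpl52 is higher after LPS in all 3 cell types, Mrpl39 doubles in hMPDM but stays near 50 CPM in RAW 264.7, and Mrpl41 and Mrpl49 are lower after LPS in all 3.

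Mrpl52 and Mrpl39, the 2 largest rises, had strongly induced genes beside them, which were looked up after the values were seen. Mmp14, a membrane-bound matrix metalloproteinase, begins 1854 bases past the end of Mrpl52 on the same strand. Mmp14 stood at 1.73 and 0.969 CPM in unstimulated BMDM and 129 and 138 CPM after LPS, a log2 change of 6.67. In RAW 264.7 Mmp14 went from 21.2 to 82.4 CPM while Mrpl52 went from 68.0 to 118 CPM, and in hMPDM Mmp14 went from 0.841 to 36.2 CPM while Mrpl52 went from 26.7 to 63.1 CPM. Mir155hg, the host transcript of miR-155, lies 2331 bases from Mrpl39 on the opposite strand. It had 7 and 1 counts in unstimulated BMDM and 424 and 717 after LPS, 2 and 231 in hMPDM, and 0 and 5 in RAW 264.7, where Mrpl39 changed least.

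Of the 75 members these were the only 2 with a neighbour within 3 kb that rose at least 4-fold in BMDM. This position was shared by 2.2% of all genes tested. Within 20 kb there were 5 members (5.22% of all genes), the others being Mrpl4, 7125 bases from Icam1, Mrpl22, 8174 bases from the interferon-induced Gm12250, and Mrps12, 16431 bases from Nfkbib. Both counts of members were near the background share. The LPS changes of Mrpl4, Mrpl22 and Mrps12 were 0.30, 0.29 and 0.02 on the log2 scale. Whether reads from neighbouring transcripts enter the members' counts was not tested, and whether reads were counted by strand is not stated. Exons of other genes cover over 50% of the counted length of 2 members, Mrps25 (53.7%) and Mrps34, so their counts are uncertain, as are those of members with near-identical pseudogenes.

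The second comparison asks which LPS changes are shared by the 3 cell types, with cell type and LPS as terms in 1 model. In this model 7 members rose and 12 fell, while 49.1% of all genes were called (25% rose and 24.2% fell). The members' median was 0.01, beside -0.02 for all genes. Mrpl52 (log2 1.33, SE 0.15, edgeR adjusted p = 7.59e-04) and Mrpl39 (0.72, SE 0.13) led the rises, followed by Mrpl27 (0.37), Mrps14 (0.36), Mrps18c (0.33) and Mrpl54 (0.27). Falls were led by Mrps36 (-1.13), Mrpl41 (-0.83, SE 0.12, edgeR adjusted p = 0.00208), Mrps35 (-0.47), Mrpl49 (-0.46), Mrpl34 (-0.41) and Mrps26 (-0.31). Of the 19 called members 6 were called under all 11 refits: Mrpl39, Mrpl41, Mrpl49, Mrpl52, Mrps26 and Mrps36. Under library-size scaling 2 members rose and 41 fell, and Mrpl54 turned to -0.05. Leaving out single BMDM libraries left 4 to 8 rises and 5 to 7 falls: Mrpl54 was lost without any of the 4, Mrpl27 without the first unstimulated (0.34) or second LPS library (0.31), Mrps35 without the second LPS library (-0.41) and Mrpl34 without the first (-0.44). Without the RAW 264.7 libraries 16 members rose, and without the hMPDM libraries 7 fell.

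With 1 library per condition, LPS within hMPDM and within RAW 264.7 was not tested, and ratios of at least 1.5-fold with 5 CPM or more in the higher library are given as counts. The same rule between replicates marked 0.0241% of all genes in each direction at rest, and 0.217% and 0.209% after LPS. In hMPDM 4 members were higher after LPS (background 12.7%) and 2 were lower (13.2%); under library-size scaling 2 were higher and 14 lower, and the median ratio went from -0.06 to -0.45. These ratios rest on the hMPDM LPS library described above, which held the 16 genes at 10.8% of their BMDM LPS level. Mrpl52 had a log2 ratio of 1.24, Mrpl39 one of 1.01 (39.0 to 78.5 CPM) and Mrps33 one of 0.75, while Mrpl41 had -0.94 (33.2 to 17.2 CPM), Mrps35 -0.73 and Mrps36 -1.03. In RAW 264.7 only Mrpl52 was higher by this rule (background 5.23%), with a ratio of 0.79, and 2 members were lower (4.53%). Its 3 smallest ratios were Mrps36 at -1.51, Mrpl34 at -0.87 (30.6 to 16.7 CPM) and Mrps34 at -0.48, and Mrpl27 (0.47) and Mrps14 (0.42) followed Mrpl52 at the top.

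The LPS changes of the members were compared between library pairs. Across the 75 members the log2 LPS changes of the 2 replicate pairs had a Pearson r of 0.83 and a Spearman rho of 0.70. Without Mrpl52, Mrpl39, Mrpl41 and Mrps36 these were 0.68 and 0.65 over 71 members. The mean BMDM change and the hMPDM change had r of 0.78 (0.59 without those 4 genes). The hMPDM LPS library held the 16 genes described above at 10.8% of their BMDM LPS level, and the part of this share in r was not tested. The BMDM and RAW 264.7 changes had r of 0.61 (0.39). These are correlations across genes, which are not independent replicates and which share libraries and scaling.

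Direct tests of the difference between responses found few members. Between hMPDM and BMDM 0 members differed by edgeR's adjusted p (background 7.86%, with 3.96% higher and 3.89% lower), 7 had an unadjusted p under 0.05 against 18% of all genes, and DESeq2 also called 0. Between RAW 264.7 and BMDM 1 member responded more positively and 7 more negatively (background 22.7%, with 10% and 12.7%). Library-size scaling turned this balance to 8 and 2, and moved the members' median difference from -0.04 to 0.23 and that of all genes from 0.00 to 0.27. The response of Mrpl52 was lower in RAW 264.7 by 0.86 on the log2 scale (SE 0.15, edgeR adjusted p = 3.2e-05) and that of Mrpl39 by 0.70 (SE 0.15, edgeR adjusted p = 5.61e-04). The fall of Mrpl41 was smaller in RAW 264.7, by 0.53 (SE 0.19, edgeR adjusted p = 0.0467). DESeq2 left 1 of these 8 calls, that of Mrpl52.

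The third comparison sets the unstimulated cell types side by side, first hMPDM against BMDM. The family was nearly alike in the 2: its summed level was 2168 CPM in hMPDM, and the median log2 difference was 0.00, as for all genes. In hMPDM 13 members were higher and 2 lower, while 38.2% of all genes were called (19% higher and 19.2% lower). The members called higher were thus near the background share. Mrpl52 stood at 26.7 CPM in hMPDM against 13.5 and 12.5 in BMDM, a log2 difference of 1.04 (SE 0.10, edgeR adjusted p = 9.28e-10). Mrps28 was at 16.4 CPM against 10.2 and 11.3, a difference of 0.60 (SE 0.12), and Mrps24, Mrpl41 and Mrps26 were higher by 0.40, 0.38 and 0.35. Mrps5 and Mrps10, core small-subunit proteins, were lower by 0.29 and 0.28. DESeq2 kept 1 of the 15 calls, Mrpl52, and called 0 members lower. The Mrps5 call was lost without either BMDM library (-0.28 and -0.30) and the Mrps10 call without the first (-0.24).

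RAW 264.7 differed far more. Unstimulated RAW 264.7 carried the family at a summed 3236 CPM against 2098 and 2090 in BMDM, and 55 of 75 members were higher while 1 was lower. In this comparison 58.4% of all genes were called, 27.1% higher and 31.3% lower, so the members lie well to the high side of the background. Their median difference was 0.62 on the log2 scale, a 1.53-fold excess, beside -0.06 for all genes (0.82 and 0.13 under library-size scaling). Of the members 38 were called and at least 1.5-fold higher (17% of all genes), and 7 at least 2-fold (9.1%). Both RAW 264.7 libraries lay above all 4 BMDM libraries for 57 members, against 27.5% of all genes. The single RAW 264.7 library at rest is assumed to vary like the BMDM pairs, and 38 of the 56 calls held under all 9 refits.

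**Figure D3:**
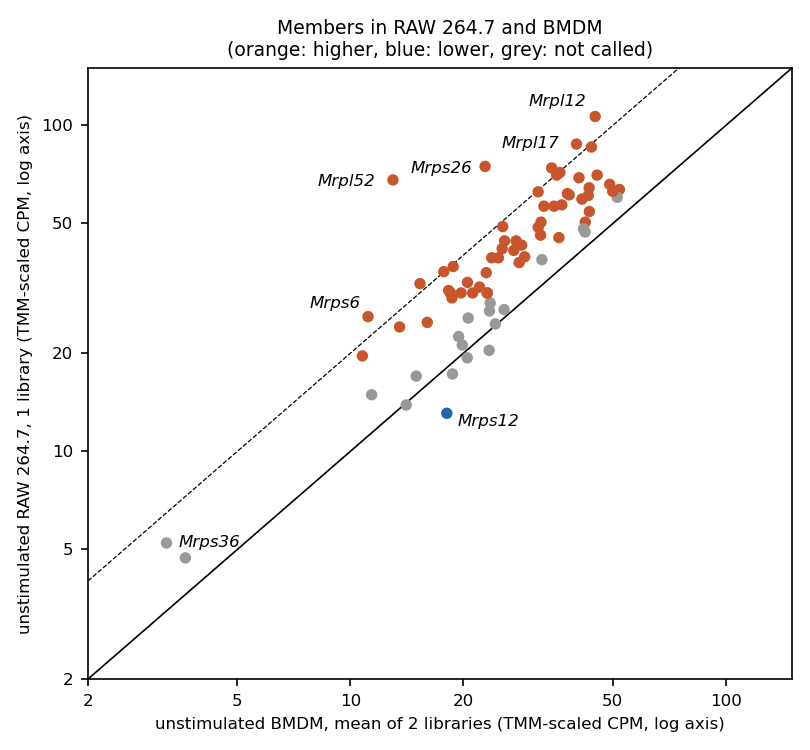
Level of each of the 75 members in unstimulated RAW 264.7 (y axis, 1 library) against unstimulated BMDM (x axis, mean of 2 libraries), in TMM-scaled CPM on log axes; the solid line marks equal levels and the dashed line a 2-fold excess. The 55 members called higher (orange) form a band above the solid line, with Mrpl52 and Mrps26 farthest from it and Mrps12 (blue) below.

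The excess ran through both subunits. In the large subunit 39 of 48 members were higher and 0 lower, with a median of 0.63, and in the small subunit 16 of 26 were higher and 1 lower, with a median of 0.48. Mrpl52 stood at 68.0 CPM in RAW 264.7, a difference of 2.39 (SE 0.13, edgeR adjusted p = 5.01e-16). Mrps26, a small-subunit protein particular to mitochondria, was at 74.8 CPM against 22.9 and 22.7 in BMDM, a difference of 1.71 (SE 0.11, edgeR adjusted p = 3.65e-14). Mrpl12 was at 107 CPM against 46.5 and 43.3, a difference of 1.251 (SE 0.09). Mrps6 and Mrpl17, both with bacterial homologs, were higher by 1.22 and 1.13. Each of these RAW 264.7 values lay above every BMDM library.

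Mrps12, a protein of the decoding centre, was the only member called lower, at 13.1 CPM against 18.5 and 17.6 (log2 difference -0.46, SE 0.20, edgeR adjusted p = 0.047). That call was lost under 6 of 9 refits. Among them were DESeq2, library-size scaling and leaving out the first unstimulated (-0.42) or the second LPS library of BMDM (-0.45). Of the S18 paralogs, Mrps18a was higher by 0.52 and Mrps18b by 0.68, whereas Mrps18c, at 24.6 CPM against 24.03 and 24.6, had a difference of 0.02 (edgeR adjusted p = 0.945). Members with and without CCGGAA in a promoter window had similar medians, 0.51 over 38 members and 0.63 over 28.

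Several other parts of the mitochondrial gene expression machinery had negative medians after LPS in BMDM. The counts of called genes below stand beside 31.7% of all genes that rose and 31.1% that fell. In these cells 7 of 13 mitochondrial translation factors fell and 0 rose, with a median log2 change of -0.27, led by Taco1, a translational activator of cytochrome oxidase subunit I (-0.59). Of 20 genes for mitochondrial aminoacyl-tRNA synthesis 12 fell and 0 rose, with a median of -0.31. Mars2, which charges mitochondrial methionyl-tRNA, went from 16.0 and 17.7 CPM to 5.89 and 6.17 CPM, a change of -1.47 (SE 0.13). Ribosome assembly and rRNA modification genes had 4 rises and 11 falls among 28, with a median of -0.22. The extremes of this list were the GTPase gene Gtpbp6 at 0.65 and the rRNA methyltransferase gene Mettl15 at -1.01.

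Genes for mitochondrial DNA transcription and RNA stability had 6 rises and 9 falls among 26 (median -0.15), beside 31.7% and 31.1% of all genes. Pnpt1, the mitochondrial polynucleotide phosphorylase, went from 39.9 and 40.4 CPM to 119 and 112 CPM, a change of 1.51, and Polg2, an accessory subunit of the mitochondrial DNA polymerase, changed by -1.59. Of 5 mitochondrial ribosomal proteins under other names 2 rose and 1 fell. Dap3, a GTP-binding protein of the small subunit, rose by 0.22 under TMM scaling, and Ptcd3 fell by 0.29. Among 10 tested regulators of mitochondrial biogenesis 4 rose and 4 fell. Myc went from 48.1 and 52.2 CPM to 8.01 and 9.41 CPM, a change of -2.49, and the nuclear receptor gene Esrra changed by 0.73.

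The cytosolic ribosome and the respiratory chain, whose subunits must match those made in mitochondria, were examined beside the members. Cytosolic ribosomal proteins had 34 rises and 6 falls among 76, beside 31.7% and 31.1% of all genes. Nuclear-encoded subunits of the respiratory chain and ATP synthase had 51 rises and 3 falls among 79. Both medians were 0.21, and both turned to -0.16 under library-size scaling, as against -0.385 for all genes. Proliferation genes had 14 falls among 16 (median -0.61), and their summed level went from 2993 and 3065 CPM to 2107 and 2050 CPM in BMDM, from 2458 to 1640 CPM in hMPDM and from 3786 to 2881 CPM in RAW 264.7. Whether cell division has a part in the members' values was not tested.

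In unstimulated RAW 264.7 against BMDM, all of these lists had positive medians. Of all genes tested, 27.1% were called higher and 31.3% lower. Translation factors had 8 higher and 0 lower of 13 (median 0.52), aminoacyl-tRNA synthesis 13 and 0 of 20 (0.52), and assembly genes 11 and 2 of 28 (0.30). Mitochondrial ribosomal proteins under other names had 4 and 0 of 5 (0.72), with Ptcd3 higher by 1.29. Cytosolic ribosomal proteins had 44 and 9 of 76 (0.41), the respiratory chain list 47 and 7 of 79 (0.30) and proliferation genes 13 and 1 of 16 (0.50). Myc, a known activator of ribosome and mitochondrial biogenesis, stood at 1.83 CPM in RAW 264.7 against 48.1 and 52.2 in BMDM, a difference of -4.77, and Ppargc1b, a coactivator of mitochondrial genes, was higher by 2.05. Differences between lists were not tested.

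**Figure D4:**
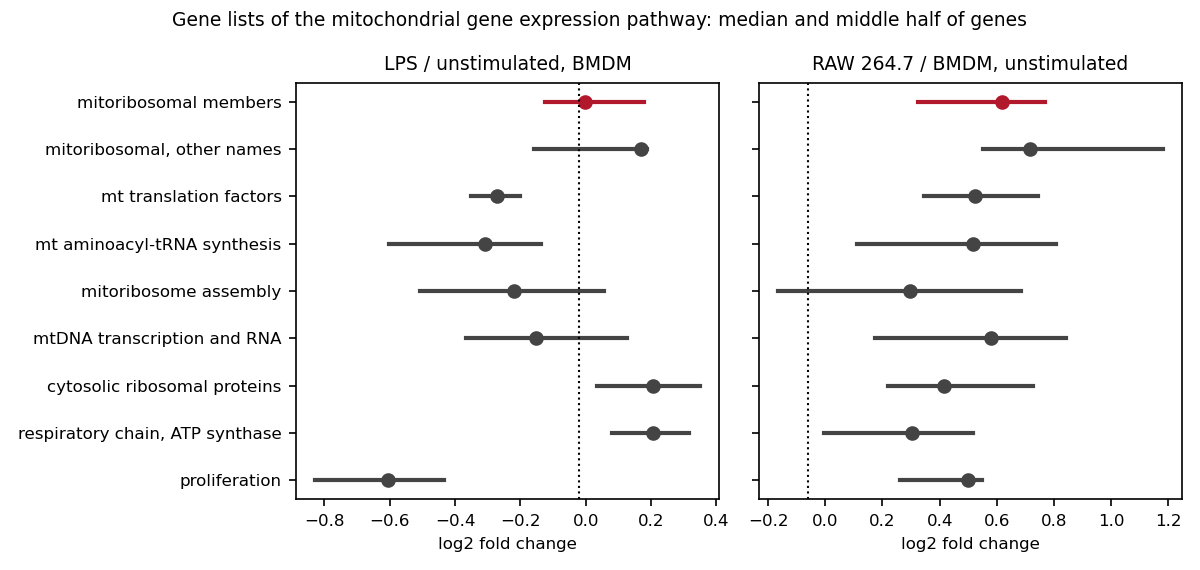
Median (points) and middle range from the lower to the upper quartile (bars) of log2 fold changes of genes in each list, for LPS against unstimulated BMDM (left) and unstimulated RAW 264.7 against BMDM (right); dotted lines mark the median of all 12461 genes tested. The members (red) have a median near 0 on the left, where aminoacyl-tRNA synthesis lies at -0.31 and cytosolic ribosomal proteins at 0.21, and of 0.62 on the right.

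Head-to-head partners were set beside their members. After LPS in BMDM 9 of 16 pairs had the same sign, and in 4 pairs both genes were called in the same direction. In this comparison 62.7% of all genes were called. No share over unrelated gene pairs was computed, so these counts cannot tell whether partners moved together. Mrpl30 rose by 0.29 while Mitd1, 66 bases away, rose by 1.96, and Mrpl51 fell by 0.24 while the condensin gene Ncapd2, 100 bases away, fell by 0.89. By contrast Mrps18c rose by 0.31 under TMM scaling while Helq, a DNA helicase gene 29 bases away, fell by 1.15. The changes of Mrps18c and Mrpl30 turned direction under library-size scaling. For the pair whose promoter is printed above, Mrpl43 had a change of -0.08 and Twnk one of -1.08 after LPS, and both were higher in RAW 264.7, by 0.52 and 1.18.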

How the data were processed

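The authors deposited 1 table of raw read counts per gene, made, per the submitters' processing notes, with cutadapt, STAR, SAMtools, bedtools and featureCounts on mm10; no versions, strand setting or treatment of reads with several matches are stated. Libraries were polyA-selected, stranded and sequenced from a single end, per the labels' protocols. Of 10 count columns, 2 match no sample described here and were not used. Gene symbols were found for 42462 of 43346 identifiers. No row without a gene was present.

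Counts were analysed with edgeR 4.0.16 (R 4.3.3): filterByExpr (12461 genes kept, among them all 75 members), TMM scaling, quasi-likelihood fits and Benjamini-Hochberg adjustment over all genes tested, called at 0.05. The fit with 1 coefficient per group has 2 residual degrees of freedom, from the BMDM pairs, and the fit with cell type and LPS has 4. Standard errors are the log2 change divided by the root of F. Levels are TMM-scaled CPM; ratios of single libraries used a prior count of 2. The scripts were tested on simulated data. The smallest detectable level, taken as 3 counts, was 0.145 to 0.785 CPM by library, for counting error only.

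The members and all gene lists were chosen with earlier results of these data known. Named genes were, among called members, the 6 largest changes in each direction after LPS (BMDM and common) and the 5 largest in other tests, the 5 highest and lowest levels per length, the 3 extreme ratios at each end, the S18 paralogs, those next to the level threshold, and the largest called rise and fall of other lists; neighbours, head-to-head pairs and printed promoters were chosen after their values were seen. Alternatives were other scalings, DESeq2 1.42.0, no filter, a replicate block, a mean of 5 CPM, and leaving out libraries. The mean of 5 CPM used the main fit on fewer members and is not counted among the refits. Whether same-numbered BMDM libraries share an animal or batch is not stated. Their deviations had a correlation of -0.0346 over all genes tested, which includes counting error and does not settle it. The main fit used no replicate block.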

Additional observations from a re-analysis of the deposited data

Results flagged for a closer look

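For 8 members the LPS response in RAW 264.7 differed from that in BMDM by edgeR's quasi-likelihood test of the difference itself, with 1 RAW 264.7 library per condition. Values are log2 responses in RAW 264.7 minus BMDM. The response was lower in RAW 264.7 for 7: Mrpl52 (-0.861), Mrpl39 (-0.702), Mrpl34 (-0.666), Mrps22 (-0.565), Mrpl21 (-0.545), Mrpl45 (-0.540) and Mrpl3 (-0.532). The response of Mrpl41 was higher by 0.527. Mrpl52, which rose in BMDM, was also higher after LPS in RAW 264.7 (68.0 to 118 CPM), whereas Mrps22 stood at 16.6 and 18.9 CPM before and 20.6 and 19.7 CPM after LPS in BMDM, against 35.6 and 27.0 CPM in RAW 264.7. Mrpl21 likewise went from 26.3 and 24.4 CPM to 29.5 and 31.5 CPM in BMDM and from 41.9 to 34.9 CPM in RAW 264.7. Of these 8 calls 1, for Mrpl52, held under all 9 refits. Without the first BMDM LPS library the Mrpl41 difference was 0.39 (edgeR adjusted p = 0.157). Without the second, Mrpl34 was at -0.64 and Mrpl21 at -0.49, with edgeR adjusted p of 0.0717 and 0.0704. Leaving out the first unstimulated BMDM library put Mrps22 at -0.48, and leaving out the second put Mrpl21 at -0.49, and neither call held.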

How the results depend on the processing

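The excess of members in RAW 264.7 held under every alternative run, with 38 (DESeq2) to 65 (library-size scaling) members higher: 54 to 57 members were higher when BMDM libraries were left out in turn (0 to 1 lower), and 0 were lower under DESeq2-type size factors, library-size scaling, DESeq2 and the replicate block. For LPS in BMDM, DESeq2-type size factors in edgeR gave 20 rises and 14 falls as with TMM, library-size scaling gave 2 and 52, the DESeq2 test gave 3 and 2, and leaving out a library gave 12 to 17 and 7 to 11, with 12 and 8 without the second unstimulated library and 7 falls without the second LPS library. In the fit common to the cell types, library-size scaling gave 2 rises and 41 falls and turned Mrpl54 to -0.051; DESeq2 gave 6 falls, no filter 7 falls, no hMPDM libraries 7 falls, and no RAW 264.7 libraries 16 rises; leaving out a BMDM library gave 4 to 8 rises and 5 to 7 falls. For hMPDM against BMDM at rest DESeq2 gave 1 higher and 0 lower, and left-out libraries 9 to 15 and 1 to 3. In the test of hMPDM against BMDM responses, left-out libraries gave 0 rises and 0 to 2 falls. In that of RAW 264.7 against BMDM, library-size scaling gave 8 and 2, DESeq2 0 and 1, and left-out libraries 0 to 1 and 4 to 8. By library size the hMPDM ratio had 2 members higher and 14 lower. With the replicate block the counts were 20 and 14 for LPS in BMDM and 5 and 8 in the common fit. For the cell types at rest they were 12 and 3 for hMPDM and 54 and 0 for RAW 264.7. For the differences in response they were 0 and 1 for hMPDM and 1 and 8 for RAW 264.7. The deviations of same-numbered libraries had a correlation of -0.0346 over all genes tested. The cause of these changes was not tested. Removing the share of BMDM LPS profile from the hMPDM LPS library left 0 and 0. Member counts were fewest in the hMPDM LPS and the RAW 264.7 libraries and for Mrps36, and single hMPDM and RAW 264.7 libraries give no spread of their own.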
